A study of Mus musculus with 8 samples.

Results

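The 4 libraries of Mkl1 knockout (KO) macrophages described here come from 2 experiments and are set against each other, KO libraries 5 and 6 of experiment 1 against KO libraries 7 and 8 of experiment 2. They are 4 of the 8 bulk RNA-seq libraries of the series, chosen by genotype and experiment alone, and the other 4 are WT libraries 1 and 2 of experiment 1 and 3 and 4 of experiment 2. KO mice were Mkl1-/-, Apoe-/- and WT mice were Mkl1+/+, Apoe-/-, so every animal lacked Apoe. All donors were male, 6 months old, and had received Ang II from an osmotic minipump for 7 days, at a dose the labels give as 1.44 mg/kg/day and also as 1 mg/kg/min, which do not match. Marrow was then grown into bone marrow derived macrophages (BMDMs) in culture for 7 days. The knockout was global and not limited to macrophages. The design names the experiments as batches. The experiment is therefore the contrast itself, and batch, culture and animal cannot be told apart in any KO difference below. Each experiment held 2 KO libraries, which were not stated to come from separate animals, so p-values measure only the spread between these libraries, which may be technical.

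MKL1 (also called MRTF-A) is a coactivator of the transcription factor SRF. It is held in the cytoplasm by monomeric actin and enters the nucleus when actin polymerises, where with SRF it drives genes of the actin cytoskeleton and of contraction. BMDMs are obtained by growing marrow progenitors with CSF1, the macrophage growth factor, and such cultures can carry over dendritic cells, osteoclast precursors and adherent stromal cells of the marrow.

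Differences are log2 values of experiment 1 minus experiment 2, so a positive value means more in KO libraries 5 and 6. Levels are CPM, counts per 1000000 counts of a library whose total was scaled by TMM over all 8 libraries, and a gene is named called when its adjusted p was under 0.05 by the quasi-likelihood F test of edgeR, adjusted by the Benjamini-Hochberg method over the 15123 genes tested. Where values are set against each other, those of libraries 5 and 6 come first and those of libraries 7 and 8 second. The targeted gene Mkl1 had 19.3 and 20.7 CPM in libraries 5 and 6 against 14.6 and 10.5 CPM in libraries 7 and 8 (log2 difference 0.67, standard error 0.18, edgeR adjusted p = 0.0449). All 4 values lay below the 25.7 and 27.1 CPM of WT libraries 1 and 2 and the 26.9 and 29.7 CPM of WT libraries 3 and 4, and the Mkl1 difference between the KO pairs was not called without library 5 or without library 6 (edgeR adjusted p = 0.191 and 0.213). Its relative Mkl2 (67.8 and 68.9 CPM against 63.5 and 57.6 CPM) and its partner Srf (27.8 and 26.8 CPM against 33.1 and 27.8 CPM) were not called, although Mkl2 was without library 7. Reads on Mkl1 thus remained in KO, and which exons they cover was not analysed here. KO libraries held 35607808 to 41331939 counts. The first principal component of the 4 KO libraries held 84.86% of the variance and separated the experiments. Over all genes, the SD of the log2 difference between the KO pairs was 1.02, against 0.387 between libraries 5 and 6 and 0.545 between libraries 7 and 8. KO of experiment 2 stood closer to WT of experiment 1 (SD 0.434, 535 genes over 2-fold) than to WT of its own experiment (SD 0.896, 2474 genes). These are differences between means of 2 libraries, and the first was below the SD between the single libraries 7 and 8 and that of 0.539 between WT libraries 3 and 4. In contrast, KO of experiment 1 stood about equally far from WT of experiment 1 (SD 1.08) and of experiment 2 (SD 1.10). The experiment of each KO library was taken from its label, and whether these labels are right was not tested. If they were exchanged between the KO pairs, every KO difference below would change sign. A single value compared between 2 and 2 libraries cannot reach an exact two-sided permutation p under 0.333, so the calls rest on the fit across all genes.

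Of 15123 genes, 4162 (27.5%) were called between the KO cultures. In all, 2075 (13.7%) were higher and 2087 (13.8%) lower in experiment 1, and these shares are the background for every list below. Large differences leaned to experiment 1, with 1215 called genes higher and 578 lower by at least 2-fold, and 481 higher and 95 lower by at least 8-fold. The count fell to 383 without library 5 and to 491 without library 6, and rose to 7057 without library 7 and 4904 without library 8. Each of these fits leaves 1 library for an experiment and assumes that it varies like the pair of the other. Upper-quartile scaling shifted the median gene by 0.10 on the log2 scale, and 63.2% of its calls were higher in experiment 1 against 49.9% here.

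**Figure D1:**
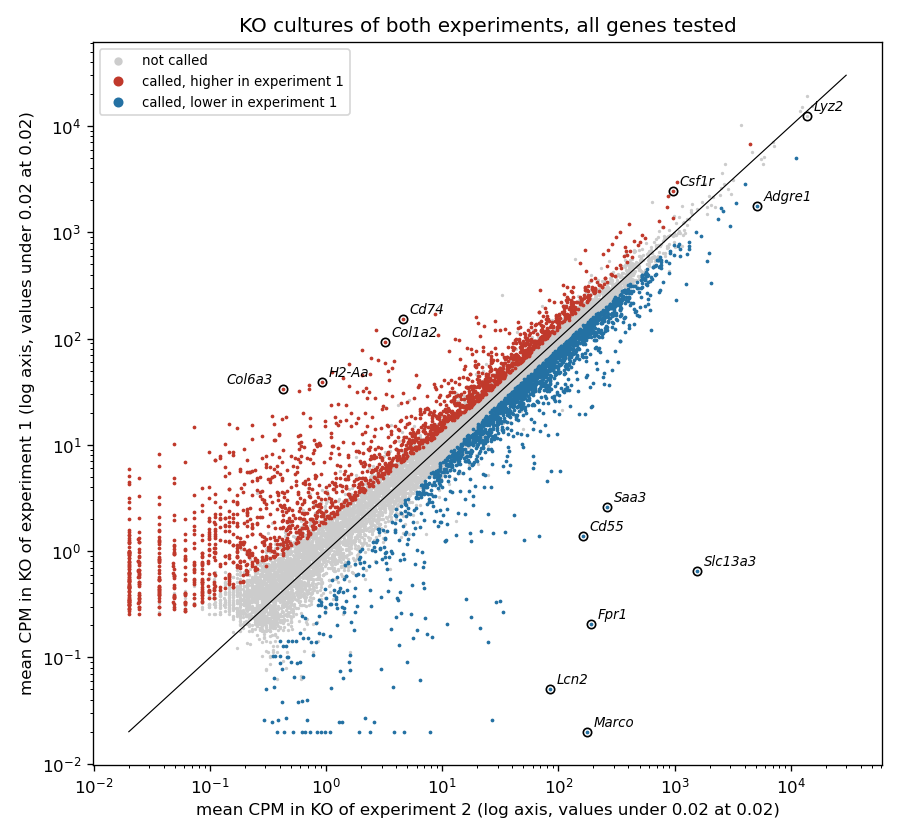
Mean CPM of each tested gene in KO of experiment 1 (vertical, log axis) against KO of experiment 2 (horizontal, log axis), with genes called higher in experiment 1 in red, called lower in blue and others in grey. Matrix and antigen presentation genes such as Col1a2 and Cd74 lie above the line of equality, and Slc13a3, Fpr1, Cd55, Lcn2 and Marco far below it, while Lyz2 lies near it.

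The genes that fell furthest in KO of experiment 1 included surface receptors and secreted proteins of myeloid cells, which were at or near 0 there and readily counted in KO of experiment 2. Marco, a scavenger receptor of macrophages, had 0 and 1 counts in libraries 5 and 6 against 6396 and 8184 counts in libraries 7 and 8, a ratio of 13760 (95% exact counting interval 2468 to 543400). Lcn2, an iron-scavenging protein, had 1 and 3 counts against 1287 and 5744, a ratio of 1658 (interval 647.4 to 6088). Such intervals cover counting error only. Both genes were thus close to undetected in experiment 1 and present in both libraries of experiment 2. Fpr1, the receptor for formylated bacterial peptides, had 0.214 and 0.198 CPM in libraries 5 and 6 against 191.3 and 190.1 CPM in libraries 7 and 8 (log2 difference -9.84, standard error 0.14, edgeR adjusted p = 4.27e-05). Its relative Fpr2 had 0.268 and 0.396 CPM against 33.2 and 25.2 CPM (log2 difference -6.44, standard error 0.26, edgeR adjusted p = 0.00139). Cd55, which shields cells from complement, had 1.58 and 1.21 CPM against 153.9 and 170.8 CPM (log2 difference -6.87, standard error 0.16, edgeR adjusted p = 0.000356). In all 3 genes both libraries of an experiment were close together and the pairs did not overlap. Slc13a3, a transporter of dicarboxylates, had 0.696 and 0.594 CPM against 969.0 and 2149 CPM (log2 difference -11.24, standard error 0.61, edgeR adjusted p = 0.00255). Saa3, an acute phase protein, had 1.71 and 3.47 CPM against 456.1 and 69.6 CPM and so differed strongly between the libraries of experiment 2 as well (log2 difference -6.66, standard error 1.13). The other genes named by the same rule were Lancl3 (-6.93), the receptor phosphatase Ptprm (-5.61), the inhibitory lectin Siglece (-5.29) and RP23-431C5.1 (-6.53) on the log2 scale. In WT the order of several was the opposite. Slc13a3 had 1599 and 2236 CPM in WT of experiment 1 and 14.8 and 10.2 CPM in WT of experiment 2, and Cd55 had 148.3 and 220.9 CPM against 6.82 and 1.99 CPM. RP23-431C5.1 was at 39.2 and 0.202 CPM in WT libraries 3 and 4, so it split replicates of 1 group. Of the 10 largest decreases among genes whose average level in the 4 KO libraries was 4 or more (aveLogCPM of edgeR, close to the log2 of the mean CPM), 8 were still called without library 5 and 8 without library 6.

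Among genes with the same minimum of aveLogCPM, which a gene can reach through the experiment where it is high, those of connective tissue made up 7 of the 10 largest increases in experiment 1. Some genes with lower levels, Myl9 below among them, had larger log2 differences. Of 37 tested genes of an extracellular matrix list, 33 were higher and 1 lower, with a median log2 difference of 4.40 against 0.01 over all genes tested. The list had 41 genes in the files and shares collagens and other genes with the fibroblast markers below, and a gene can pass the count filter through the experiment in which it is high, so this share is a description. Col1a2, a chain of type I collagen, had 80.9 and 103.6 CPM in libraries 5 and 6 against 5.37 and 0.989 CPM in libraries 7 and 8 (log2 difference 4.86, standard error 0.71, edgeR adjusted p = 0.0136). Col3a1, the chain of type III collagen, had 27.5 and 46.3 CPM against 1.17 and 0.241 CPM (log2 difference 5.70, standard error 0.62, edgeR adjusted p = 0.00795). The chains of microfibrillar type VI collagen moved alike, and Col6a3 had 29.02 and 37.4 CPM against 0.635 and 0.217 CPM (log2 difference 6.27, standard error 0.39, edgeR adjusted p = 0.00314). Every one of these was high in libraries 5 and 6, low in library 7 and lowest in library 8. Differences of the same kind were found for Col6a1 (5.25), Col6a2 (5.57), Col12a1 (5.43), Col1a1 (5.33), the matricellular protein Sparc (5.20), the fibrillin Fbn1 (3.97) and the proteoglycan Bgn (4.75). Thbs1, thrombospondin 1, had 148.4 and 190.5 CPM against 11.3 and 6.10 CPM (log2 difference 4.28, standard error 0.33, edgeR adjusted p = 0.00419). Lox, which crosslinks collagen, was the 1 matrix gene that went the other way, with 31.97 and 42.04 CPM against 203.4 and 292.2 CPM (log2 difference -2.75, standard error 0.23). Its WT libraries had 629.5 and 430.2 CPM in experiment 1 and 54.8 and 31.2 CPM in experiment 2.

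Markers of other cell types moved with the matrix genes. Of 10 tested fibroblast markers, 9 were higher and none lower, and their summed level was 323.3 and 401.3 CPM in libraries 5 and 6 against 22.4 and 4.34 CPM in libraries 7 and 8. It was 9.32 and 21.00 CPM in WT of experiment 1 and 24.9 and 24.6 CPM in WT of experiment 2, so only KO of experiment 1 was high among the 4 groups. Pdgfra, a growth factor receptor of mesenchymal cells, had 29.96 and 33.7 CPM in libraries 5 and 6 against 1.10 and 0.0723 CPM in libraries 7 and 8 (log2 difference 5.76, standard error 0.73, edgeR adjusted p = 0.0107), and its relative Pdgfrb had 15.4 and 18.1 CPM against 1.47 and 0.506 CPM (log2 difference 4.08, standard error 0.45, edgeR adjusted p = 0.00767). The fibroblast markers Lum and Thy1 were close to 0, with 2 and 4 counts in the 4 KO libraries together. Of 10 tested marrow stroma markers, 6 were higher and none lower. Cxcl12, the niche chemokine that holds progenitors in the marrow, had 10.8 and 13.4 CPM against 0.415 and 0.145 CPM (log2 difference 5.42, standard error 0.41, edgeR adjusted p = 0.00381). Grem1, a BMP antagonist, had 106.2 and 111.3 CPM against 15.5 and 2.89 CPM (log2 difference 3.57, standard error 0.74, edgeR adjusted p = 0.0279), while Spp1, osteopontin, also made by macrophages, had 9302 and 11300 CPM against 5650 and 1765 CPM and was not called. All 5 tested smooth muscle markers, of 10 in the files, were higher, with a summed level over the list of 33.7 and 45.1 CPM against 3.84 and 2.99 CPM. The smooth muscle markers Myh11 and Cnn1 had 12 and 2 counts in the 4 KO libraries. As with the matrix genes, a marker can pass the count filter through the experiment in which it is high. Shares of tested markers, here and below, are therefore descriptions. With at least 10 counts in every library, only 2 smooth muscle markers were left, and both were called higher. Of 5 tested endothelial markers, 2 were higher and none lower. In bulk RNA, more cells of a type and more RNA per cell cannot be told apart. The part of such cells in the matrix result was not tested. Without library 5, 6, 7 or 8 in turn, 5, 4, 36 and 35 matrix genes were called higher and 1, 1, 1 and 2 lower, and 0, 0, 10 and 10 fibroblast markers higher. In the same fits, 1, 1, 8 and 7 marrow stroma markers, 4, 4, 5 and 5 smooth muscle markers and 0, 0, 3 and 2 endothelial markers were called higher. With no count filter beyond 1 count, 10 matrix genes and 2 fibroblast markers were called higher.

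Known targets of MRTF and SRF did not move together. Of 30 tested, 11 were higher, 4 lower and 15 not called, with a median of 0.04 that turned negative without library 6 (-0.03) and without library 8 (-0.11). The higher ones included contractile genes of smooth muscle. Acta2, smooth muscle actin, had 10.8 and 14.4 CPM in libraries 5 and 6 against 1.98 and 2.07 CPM in libraries 7 and 8 (log2 difference 2.63, standard error 0.21, edgeR adjusted p = 0.00395), and Tagln had 7.09 and 8.49 CPM against 0.244 and 0 CPM (log2 difference 5.96, standard error 0.76, edgeR adjusted p = 0.0101). Myl9, a myosin light chain, had 117 and 234 counts in libraries 5 and 6 against 1 and 0, a ratio of 372 (interval 66.34 to 14740). Tpm2, a tropomyosin, differed by 3.84, the myosin kinase Mylk, which is on the smooth muscle list alone, by 3.57, the LIM protein Fhl2 by 6.54 and the matricellular target Cyr61 by 5.02. Cnn2, a calponin also found outside muscle, had 27.9 and 26.8 CPM against 3.25 and 1.28 CPM (log2 difference 3.59, standard error 0.41, edgeR adjusted p = 0.00788), and here KO of experiment 1 was at the level of WT libraries 1 and 2 (25.8 and 26.5 CPM). The 4 lower targets were the actin crosslinker Flna (-0.82), Tagln2 (-0.57), the focal adhesion protein Tes (-1.24) and the fibronectin receptor chain Itga5 (-0.78). Flna had 1290 and 1373 CPM against 2059 and 2632 CPM, below the 3564 and 3058 CPM of WT libraries 1 and 2 and the 2811 and 2764 CPM of WT libraries 3 and 4. Actb, cytoplasmic actin, had 4883 and 5218 CPM against 6372 and 5505 CPM and was not called. Calls of the list in the fits without library 5, 6, 7 or 8 were 5, 5, 14 and 11 higher and 0, 0, 6 and 9 lower.

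**Figure D2:**
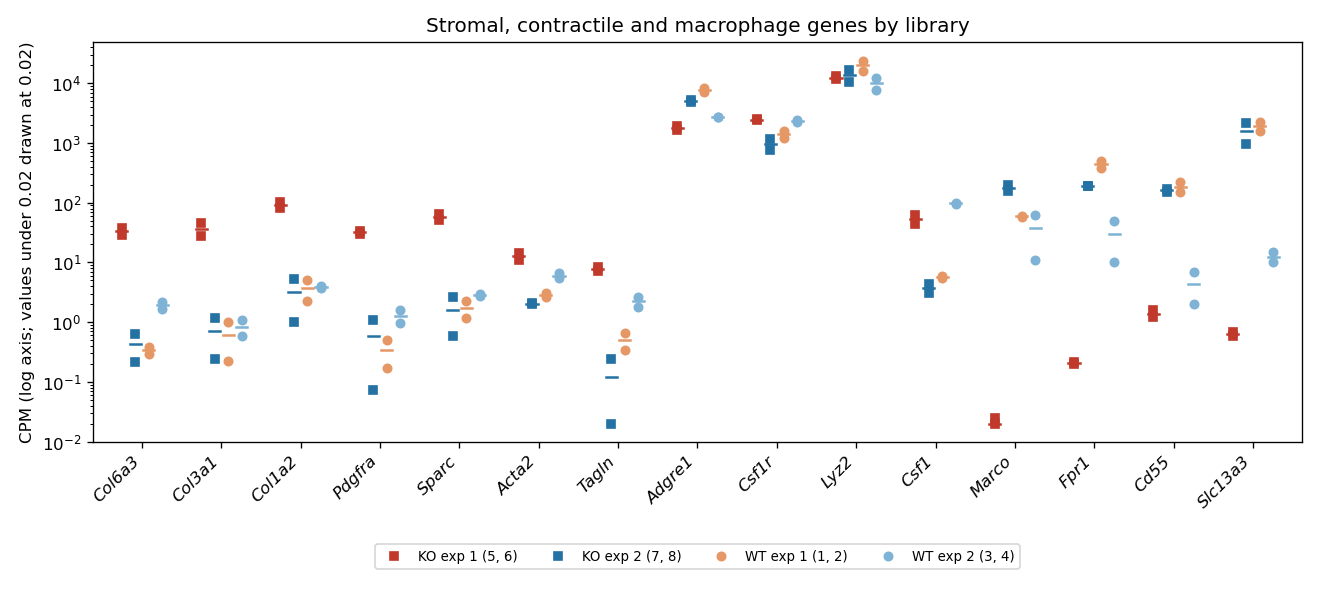
CPM (log axis) of stromal, contractile and macrophage genes in each of the 8 libraries, by genotype and experiment (squares KO, circles WT, short bars group means). Collagen genes, Pdgfra and Sparc are high in KO of experiment 1 alone, whereas Fpr1, Cd55 and Slc13a3 are lowest there.

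Most tested genes of antigen presentation by MHC class II were higher in KO of experiment 1, by the most for the class II chains, Cd74 and Ciita. MHC class II molecules show peptides to helper T cells, and their transcription depends on CIITA, which is recruited by factors bound to a conserved promoter block that ends in a CCAAT box. Of 14 tested genes of the list, 9 were higher and 0 lower, with a median of 1.52. Ciita, the coactivator itself, had 18.3 and 10.7 CPM in libraries 5 and 6 against 0.269 and 0.0723 CPM in libraries 7 and 8 (log2 difference 6.38, standard error 0.54, edgeR adjusted p = 0.00448). The alpha chain gene H2-Aa had 45.4 and 32.1 CPM against 1.27 and 0.579 CPM (log2 difference 5.38, standard error 0.37, edgeR adjusted p = 0.00358) and the beta chain genes H2-Eb1 and H2-Ab1 differed by 4.98 and 3.18. Cd74, the invariant chain, had 179.2 and 128.2 CPM against 5.50 and 3.67 CPM (log2 difference 5.06, standard error 0.28, edgeR adjusted p = 0.00243). H2-DMa, which helps load peptides, differed by 1.29. The 2 pairs of libraries did not overlap in any of these. Ctss and Ifi30, which process antigen in lysosomes of macrophages in general, had log2 differences of 0.67 and 0.49 and were not called, and the costimulatory genes Cd40, Cd80 and Cd86 were not called either. The summed level of the list, mostly Ctss, was 4915 and 4736 CPM against 3836 and 1969 CPM. In WT the order was reversed, with H2-Aa at 1.97 and 1.67 CPM in experiment 1 and 143.9 and 25.3 CPM in experiment 2, and the median of the list was -1.82 in WT. When library 5, 6, 7 or 8 was left out, 5, 5, 12 and 10 members were called higher and 0, 0, 1 and 0 lower.

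The promoter stretches of H2-Aa and H2-Eb1 are shown because they hold the CCAAT motif (ATTGG on the other strand), with every match in capitals. The rest of that block was not searched for. Both come from RefSeq on GRCm38.p6, H2-Aa at chr17:34287837-34287901 on the minus strand and H2-Eb1 at chr17:34305778-34305842 on the plus strand.
H2-Aa: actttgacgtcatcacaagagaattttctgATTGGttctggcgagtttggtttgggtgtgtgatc
H2-Eb1: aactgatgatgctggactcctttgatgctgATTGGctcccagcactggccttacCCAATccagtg
The match begins 48 bases before the start of H2-Aa, and the matches of H2-Eb1 begin 59 and 35 bases before its start. A window from 250 bases before to 50 after the start was searched on both strands in the 9470 tested genes with a promoter in the table (12134 windows). CCAAT was found in 6 of 7 windows of the MHC class II genes called higher (85.7%), in 6 of 10 windows of all tested MHC class II genes (60.0%) and in 37.6% of all windows, and a match is a description of the sequence.

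Monocyte markers were also higher in KO of experiment 1, as were some but not all markers of dendritic cells, which present antigen by MHC class II. Ccr2, the chemokine receptor by which monocytes leave the marrow, had 133.2 and 104.9 CPM in libraries 5 and 6 against 3.59 and 1.78 CPM in libraries 7 and 8 (log2 difference 5.47, standard error 0.34, edgeR adjusted p = 0.00314). Of 8 tested monocyte markers, 7 were higher and none lower, with a median of 2.05. The summed level of the list was 550.3 and 519.2 CPM against 252.4 and 205.7 CPM. It was 264.5 and 235.2 CPM in WT of experiment 1 and higher still in WT of experiment 2, at 964.0 and 721.8 CPM. Vcan, versican, which also stands on the matrix list, had 29.7 and 29.2 CPM against 10.1 and 9.19 CPM (log2 difference 1.61, standard error 0.11, edgeR adjusted p = 0.00309). Plac8 differed by 4.70. The monocyte markers Ly6c2 and Chil3 had 4 and 3 counts in all 4 KO libraries. Itgax, the CD11c integrin, had 19.01 and 29.02 CPM against 1.59 and 0.940 CPM (log2 difference 4.24, standard error 0.34, edgeR adjusted p = 0.00419), and Clec10a, a lectin of dendritic cells and macrophages, had 35.3 and 25.5 CPM against 4.69 and 4.56 CPM (log2 difference 2.71, standard error 0.19, edgeR adjusted p = 0.00326). Of 5 tested dendritic cell markers, 3 were higher and 1 lower, and their summed level was 63.7 and 64.5 CPM against 8.79 and 9.98 CPM. The third higher one was the actin bundler Fscn1 (5.65), the lower one was Batf3 (-1.77), a factor of cross-presenting dendritic cells, with 0.883 and 0.693 CPM against 1.69 and 3.69 CPM, and Zbtb46 (-0.39) was not called. The more specific markers were near 0, with 27 counts of Xcr1, 11 of Clec9a, 7 of Ccr7, 2 of Flt3 and 0 of Cd209a in the 4 KO libraries together. The part of dendritic cells in the MHC class II result was not tested. With library 5, 6, 7 or 8 removed, 4, 4, 8 and 7 monocyte markers were called higher. In those fits, 2, 2, 3 and 3 dendritic cell markers were called higher and 0, 0, 1 and 1 lower.

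All 4 KO cultures carried macrophage markers at high levels, and single markers differed between the experiments in both directions. The summed level of the 24 markers was 30640 and 28450 CPM in libraries 5 and 6 against 34560 and 24020 CPM in libraries 7 and 8, and these ranges overlap. Of the list, 6 were higher, 4 lower and 14 not called. Lyz2, lysozyme, had 13037 and 11568 CPM in libraries 5 and 6 against 16758 and 10648 CPM in libraries 7 and 8 and was not called, although it was without library 8 (log2 difference -0.45, edgeR adjusted p = 0.0282). Adgre1, which encodes F4/80, had 1909 and 1653 CPM against 4881 and 5292 CPM (log2 difference -1.52, standard error 0.14, edgeR adjusted p = 0.00491). The factor Cebpb had 30.9 and 33.3 CPM against 77.6 and 86.7 CPM (log2 difference -1.36, standard error 0.10, edgeR adjusted p = 0.00371), and the integrin chain Itgam, the CD11b gene, differed by -1.01. The fourth lower marker was Marco. Csf1r, the CSF1 receptor, had 2512 and 2417 CPM against 1177 and 755.5 CPM (log2 difference 1.35, standard error 0.22, edgeR adjusted p = 0.0157). Its ligand Csf1 had 43.7 and 61.8 CPM against 4.30 and 3.11 CPM (log2 difference 3.83, standard error 0.25, edgeR adjusted p = 0.0031), so receptor and ligand were both higher in experiment 1. In WT, Csf1 had 5.43 and 5.99 CPM in experiment 1 and 96.5 and 98.2 CPM in experiment 2. The fractalkine receptor Cx3cr1 differed by 1.63, the transglutaminase F13a1 by 3.82 and Mertk, which recognises dying cells, by 1.18. In fits that left out library 5, 6, 7 or 8, 1, 1, 14 and 8 markers were called higher and 2, 2, 5 and 6 lower. Neutrophil markers were low, with Elane at 0 counts and S100a9 and Ly6g at 1 count each in the 4 KO libraries. Of 4 tested, 3 were lower in experiment 1 and none higher, namely Lcn2, S100a8 (-1.81) and the receptor gene Csf3r (-0.80), and none was called without library 5 or library 6. Their summed level of 53.5 and 50.6 CPM against 115.6 and 203.8 CPM includes Lcn2.

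Several genes of uptake and tissue repair were higher in KO of experiment 1. Of 19 tested efferocytosis genes, 7 were higher and 1 lower. Gas6, the bridge between dying cells and the receptors of the MERTK family, had 1244 and 1150 CPM in libraries 5 and 6 against 499.8 and 317.8 CPM in libraries 7 and 8 (log2 difference 1.55, standard error 0.23, edgeR adjusted p = 0.0124), and the integrin chain Itgb5 had 283.3 and 264.1 CPM against 130.0 and 129.5 CPM (log2 difference 1.07, standard error 0.09, edgeR adjusted p = 0.0042). The lower gene was Elmo1, which acts in engulfment, with a difference of -0.73 (singled out after its value was seen). Of 13 tested scavenger receptors, 5 were higher and 2 lower. Cd36, a receptor for oxidised lipoproteins, had 676.5 and 609.3 CPM against 1973 and 1949 CPM (log2 difference -1.61, standard error 0.12, edgeR adjusted p = 0.00331), while Clec7a, the receptor for fungal glucans, had 87.97 and 74.5 CPM against 19.01 and 13.8 CPM (log2 difference 2.30, standard error 0.18, edgeR adjusted p = 0.00415). Of 15 tested genes of alternative activation, 8 were higher and 2 lower. Mrc1, the mannose receptor, had 1942 and 1950 CPM against 955.6 and 313.5 CPM (log2 difference 1.61, standard error 0.52, edgeR adjusted p = 0.0752) and was not called, and libraries 7 and 8 were far apart. Of 17 tested complement genes, 8 were higher and 4 lower. The C1q chains C1qb and C1qc differed by 1.33 and 0.99. C3, the central component, had 51.2 and 71.2 CPM against 358.7 and 169.9 CPM (log2 difference -2.11, standard error 0.39). Of 7 tested osteoclast genes, 4 were higher and 2 lower. The lower ones were the classical markers Mmp9, a gelatinase, with 0.723 and 0.693 CPM against 8.21 and 5.38 CPM (log2 difference -3.26, standard error 0.30), and Acp5, the tartrate-resistant acid phosphatase, with 5.17 and 4.28 CPM against 8.65 and 9.62 CPM (log2 difference -0.96, standard error 0.17). Atp6v0d2, a proton pump subunit used in fusion of osteoclast precursors, had 102.7 and 96.9 CPM against 13.9 and 11.9 CPM (log2 difference 2.95, standard error 0.11), and Itgb3 had 28.9 and 28.03 CPM against 9.97 and 8.90 CPM (log2 difference 1.59, standard error 0.11). The osteoclast gene Calcr had 1 count in the 4 KO libraries. Without library 5, 6, 7 or 8, 3, 3, 12 and 9 efferocytosis genes, 3, 4, 11 and 10 genes of alternative activation, 2, 2, 8 and 7 complement genes and 2, 2, 5 and 4 osteoclast genes were called higher. In these fits, 1, 1, 10 and 7 scavenger receptors were called higher and 2, 2, 2 and 3 lower, and 1, 1, 5 and 7 complement genes, 0, 0, 1 and 1 efferocytosis genes, 0, 0, 2 and 2 genes of alternative activation and 1, 1, 2 and 3 osteoclast genes lower.

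Many inflammatory genes were lower in KO of experiment 1. NF-kB drives cytokine genes after sensing of danger, and it also drives its own inhibitors. Of 30 tested genes of the pathway, 12 were lower and 1 higher, although the median of the list was only -0.12. Nfkbia, which encodes the inhibitor IkBa, had 64.2 and 61.1 CPM in libraries 5 and 6 against 109.4 and 101.0 CPM in libraries 7 and 8 (log2 difference -0.75, standard error 0.09, edgeR adjusted p = 0.00778). Nfkbiz, a nuclear relative, had 51.7 and 42.7 CPM against 198.2 and 298.7 CPM (log2 difference -2.40, standard error 0.23, edgeR adjusted p = 0.00589), and Sod2, the mitochondrial superoxide dismutase, had 59.1 and 59.4 CPM against 218.9 and 200.8 CPM (log2 difference -1.83, standard error 0.09, edgeR adjusted p = 0.00175). The modifiers Tnip1, Tnip3 and Bcl3 differed by -1.37, -1.23 and -1.02, and Cflar, which restrains cell death, by -0.59. The 1 gene that was higher was Traf6, an adaptor of the receptors, with 47.3 and 42.98 CPM against 29.8 and 30.2 CPM (log2 difference 0.59, standard error 0.09, edgeR adjusted p = 0.0143). It stands outside the rule for named genes and was singled out after its value was seen. The lower genes named here were lower in every KO library than in every WT library, except Bcl3. When library 5, 6, 7 or 8 was left out, 3, 4, 14 and 12 members were called lower and 0, 0, 6 and 3 higher.

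Among 22 tested proinflammatory cytokines and mediators, 9 were lower and 3 higher, with a median of -0.77. Tnf had 20.1 and 26.5 CPM in libraries 5 and 6 against 128.3 and 124.2 CPM in libraries 7 and 8 (log2 difference -2.44, standard error 0.15, edgeR adjusted p = 0.00268). Acod1, which makes itaconate, had 3.56 and 5.55 CPM against 107.5 and 50.5 CPM (log2 difference -4.11, standard error 0.46, edgeR adjusted p = 0.00828), and Ptgs2, which makes prostaglandins, had 3.03 and 3.14 CPM against 19.5 and 11.96 CPM (log2 difference -2.35, standard error 0.27, edgeR adjusted p = 0.00767). Tnf was close within each pair, while libraries 7 and 8 differed in Acod1. Nos2, the inducible nitric oxide synthase, had 0.0535 and 0.0990 CPM against 2.10 and 1.13 CPM and Ebi3, a cytokine subunit, had 28.1 and 29.3 CPM against 65.8 and 86.7 CPM. Of 20 tested chemokines, 5 were higher and 5 lower. Cxcl2, which draws neutrophils, had 1.90 and 2.60 CPM against 25.04 and 24.8 CPM (log2 difference -3.47, standard error 0.18, edgeR adjusted p = 0.00181). Ccl3 and Ccl4 differed by -2.01 and -1.997, and the monocyte attractant Ccl7 by -3.06, whereas Cxcl5 had 5.65 and 8.86 CPM against 0.195 and 0.0241 CPM (log2 difference 6.01, standard error 0.62). The WT libraries of experiment 1 had less than those of experiment 2 as well, with 325.5 and 295.3 CPM against 1414 and 1636 CPM of Tnf, and 156.4 and 121.9 CPM against 548.2 and 634.0 CPM of Cxcl2. With library 5, 6, 7 or 8 removed, 1, 2, 10 and 11 cytokines and mediators were called lower and 1, 1, 5 and 3 higher, and 3, 3, 3 and 8 chemokines lower and 2, 2, 11 and 4 higher.

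Stretches of the Nfkbia and Cxcl2 promoters are shown because each holds a match to the NF-kB motif GGANTTTCC, in capitals. They lie in GRCm38.p6 (RefSeq) at chr12:55492787-55492855 on the minus strand and at chr5:90903773-90903841 on the plus strand.
Nfkbia: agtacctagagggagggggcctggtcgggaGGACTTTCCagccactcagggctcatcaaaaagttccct
Cxcl2: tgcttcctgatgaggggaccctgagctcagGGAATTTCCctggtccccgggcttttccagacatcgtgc
The motif, searched on both strands, was in 6 of 30 windows of the tested NF-kB genes (20.0%), in 2 of 14 windows of those called lower (14.3%) and in 1.36% of all windows.

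Many interferon stimulated genes were modestly higher in KO of experiment 1. Interferons induce these antiviral genes through ISGF3, which binds the interferon stimulated response element (ISRE). Of 56 tested genes of the list, 28 were higher and 2 lower, with a median of 0.69. Gbp3, a guanylate binding protein, had 32.3 and 30.1 CPM in libraries 5 and 6 against 14.5 and 10.5 CPM in libraries 7 and 8 (log2 difference 1.31, standard error 0.17, edgeR adjusted p = 0.00935). Ifit3b had 18.6 and 13.8 CPM against 6.03 and 4.29 CPM (log2 difference 1.64, standard error 0.23, edgeR adjusted p = 0.0115) and Oas2, which makes the activator of RNase L, had 141.6 and 124.6 CPM against 79.8 and 62.1 CPM (log2 difference 0.90, standard error 0.14, edgeR adjusted p = 0.0141). Gbp7 and Phf11b differed by 0.96 and 0.81. Ifi27 was among the 2 that were lower, with 13.3 and 15.6 CPM against 30.95 and 41.02 CPM (log2 difference -1.32, standard error 0.17, edgeR adjusted p = 0.00987). In the fit of all 8 libraries, 0 members of the list were called lower. The WT difference was larger and of the other sign. Gbp3 had 9.72 and 11.8 CPM in WT of experiment 1 and 306.1 and 180.2 CPM in WT of experiment 2, and the median of the list was -2.46 in WT. In fits that left out library 5, 6, 7 or 8, 0, 1, 44 and 35 members were called higher and 0, 1, 4 and 3 lower, and 16 were called higher in the fit of all 8 libraries.

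The promoters of Ifit3b and Gbp3 are shown for their matches to the ISRE core GAAANNGAA, which reads TTCNNTTTC on the other strand (capitals, with 2 overlapping matches in Gbp3). The stretches are from GRCm38.p6 (RefSeq), at chr19:34607740-34607808 and chr3:142559970-142560038, both on the plus strand.
Ifit3b: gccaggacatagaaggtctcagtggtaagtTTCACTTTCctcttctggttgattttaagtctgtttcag
Gbp3: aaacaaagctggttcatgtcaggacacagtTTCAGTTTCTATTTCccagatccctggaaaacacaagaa
The core was in 28 of 50 windows of the tested interferon stimulated genes (56.0%), in 14 of 23 windows of those called higher (60.9%) and in 7.3% of all windows.

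**Figure D3:**
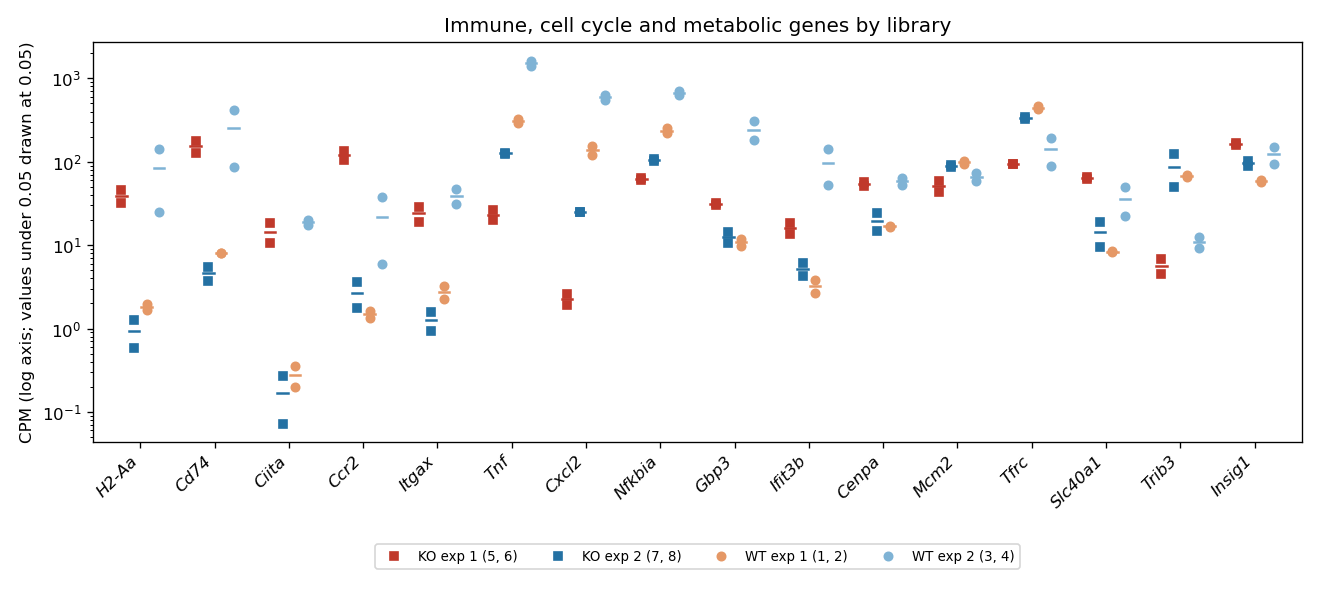
CPM (log axis) of immune, cell cycle and metabolic genes in each of the 8 libraries, by genotype and experiment (squares KO, circles WT, short bars group means). For H2-Aa, Cd74, Ciita and Itgax, KO of experiment 1 and WT of experiment 2 are high, and KO of experiment 2 and WT of experiment 1 low.

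Of the cell cycle genes that were called, those of mitosis were higher and those of DNA replication lower in KO of experiment 1. Of 32 tested mitosis genes, 7 were higher and none lower, with a median of 0.30. Cenpa, the centromeric histone, had 51.6 and 57.5 CPM in libraries 5 and 6 against 24.1 and 14.9 CPM in libraries 7 and 8 (log2 difference 1.48, standard error 0.23, edgeR adjusted p = 0.0147). Cdc20, which activates the anaphase promoting complex, had 35.3 and 43.1 CPM against 24.97 and 18.5 CPM (log2 difference 0.85, standard error 0.18, edgeR adjusted p = 0.0264), and the kinase Plk1 differed by 0.85, Cenpf by 1.17, the kinesin Kif20a by 0.77 and the cyclin Ccnb2 by 0.90. The 2 pairs did not overlap in these genes, and library 8 was the lowest of the 4. Mki67, a marker of cycling cells, had 613.7 and 708.7 CPM against 562.8 and 357.2 CPM and was not called. Of 35 tested replication genes, none was higher and 9 were lower, with a median of -0.40. Mcm2, a subunit of the replicative helicase, had 43.2 and 58.03 CPM against 87.2 and 91.5 CPM (log2 difference -0.82, standard error 0.15, edgeR adjusted p = 0.0194). Cdc45, which completes that helicase, had 14.3 and 18.6 CPM against 31.6 and 29.01 CPM (log2 difference -0.89, standard error 0.15, edgeR adjusted p = 0.0162), and the cyclin Ccne1 differed by -1.004, the licensing factor Cdt1 by -0.83, Mcm3 by -0.61 and the clamp loader subunit Rfc4 by -0.54. For each of these, both libraries of experiment 1 lay below both of experiment 2. Pcna, the clamp, had 174.5 and 209.9 CPM against 316.4 and 242.7 CPM (log2 difference -0.54, standard error 0.16, edgeR adjusted p = 0.0597) and was not called. Of 58 tested histone genes, 7 were higher, a share near the background, and 1 lower, with a median of 0.64. Hist2h4 had 39.2 and 43.4 CPM against 26.1 and 20.2 CPM and Hist3h2a 12.7 and 14.5 CPM against 6.16 and 7.40 CPM, while Hist1h2bc, the 1 lower gene, had 38.7 and 44.7 CPM against 60.98 and 57.4 CPM. Most histone genes leaned the same way as the mitosis genes without being called. Histone genes are near-identical copies, so their reads can be split between them. DESeq2 called 22 histone genes higher and the fit of all 8 libraries 25. Without library 5, 6, 7 or 8, 0, 0, 25 and 7 mitosis genes and 0, 0, 42 and 8 histone genes were called higher, and 0, 4, 9 and 14 replication genes and 0, 0, 1 and 2 histone genes lower.

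The CHR element TTTGAA marks promoters of genes expressed late in the cycle, and the stretches of Cdc20 and Ccnb2 that hold it are shown with the element in capitals. They lie in GRCm38.p6 (RefSeq) at chr4:118437344-118437391 and chr9:70421686-70421751, both on the minus strand.
Cdc20: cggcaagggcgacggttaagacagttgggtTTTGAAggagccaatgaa
Ccnb2: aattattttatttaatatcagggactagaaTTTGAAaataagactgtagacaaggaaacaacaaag
TTTGAA, searched on both strands, was in 23 of 29 windows of the tested mitosis genes (79.3%) and in 12.0% of all windows. The E2F motif, searched as TTTCGCGC or TTTGGCGC, was in 9 of 30 windows of the tested replication genes and in 1.51% of all windows.

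Many iron handling and antioxidant genes were lower in KO of experiment 1. Of 18 tested iron and heme genes, 10 were lower and 3 higher, with a median of -0.67. Tfrc, the transferrin receptor that takes up iron, had 93.2 and 94.7 CPM in libraries 5 and 6 against 341.4 and 330.1 CPM in libraries 7 and 8 (log2 difference -1.84, standard error 0.09, edgeR adjusted p = 0.00162). Slc11a2, an importer of ferrous iron, had 52.6 and 51.3 CPM against 206.2 and 221.6 CPM (log2 difference -2.05, standard error 0.09, edgeR adjusted p = 0.00145), and Slc11a1, which moves metal out of the phagosome, differed by -1.12. Fth1, the ferritin heavy chain, had 4978 and 4917 CPM against 10114 and 11964 CPM (log2 difference -1.16, standard error 0.15, edgeR adjusted p = 0.00977), Hmox1, which breaks down heme, had 214.0 and 214.4 CPM against 495.8 and 386.8 CPM (log2 difference -1.05, standard error 0.14, edgeR adjusted p = 0.01), and the ferroxidase Cp differed by -2.71. Slc40a1, the iron exporter ferroportin, went the other way with 66.2 and 62.2 CPM against 19.1 and 9.40 CPM (log2 difference 2.17, standard error 0.33). The other 2 higher genes were Cd163, the receptor for haemoglobin, and Hpgd, a prostaglandin enzyme that stood on the list by mistake. Of 21 tested NRF2 antioxidant genes, 11 were lower and 1 higher. Gclm, a subunit of the enzyme that starts glutathione synthesis, had 43.96 and 46.7 CPM against 155.8 and 195.9 CPM (log2 difference -1.96, standard error 0.14), Srxn1 differed by -1.18 and the glutathione reductase Gsr by -0.84. The higher gene was G6pdx, with 289.8 and 278.0 CPM against 162.1 and 182.1 CPM (log2 difference 0.72, standard error 0.10). Slc40a1 and G6pdx were singled out after their values were seen. When library 5, 6, 7 or 8 was left out, 3, 2, 12 and 10 iron and heme genes and 4, 4, 13 and 12 antioxidant genes were called lower, and 1, 1, 4 and 2 and 0, 0, 5 and 1 higher.

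Of 24 tested genes of the unfolded protein response, 10 were lower and 1 higher. The lower ones with the largest differences belong to the ATF4 branch, which answers amino acid shortage as well as stress of the endoplasmic reticulum. Atf4 had 127.4 and 148.9 CPM in libraries 5 and 6 against 373.1 and 515.6 CPM in libraries 7 and 8 (log2 difference -1.69, standard error 0.19, edgeR adjusted p = 0.00723), and its targets Asns, which makes asparagine, had 32.5 and 41.05 CPM against 197.8 and 346.6 CPM (log2 difference -2.89, standard error 0.31, edgeR adjusted p = 0.00706) and Trib3 4.55 and 6.78 CPM against 49.9 and 122.2 CPM (log2 difference -3.93, standard error 0.51, edgeR adjusted p = 0.0112). Chac1, Ddit3 and Sesn2 differed by -3.79, -1.86 and -1.40. Library 8 was the highest of the 4 in each of these. Of 35 tested glycolysis and HIF genes, 12 were lower and 4 higher. Hk2, the first enzyme of glycolysis, had 31.4 and 34.02 CPM against 118.5 and 129.4 CPM (log2 difference -1.93, standard error 0.10, edgeR adjusted p = 0.00175), and Pfkfb3 had 24.8 and 24.8 CPM against 77.5 and 84.3 CPM (log2 difference -1.71, standard error 0.09). Ndrg1 had 118.0 and 120.4 CPM against 413.5 and 845.0 CPM (log2 difference -2.41, standard error 0.35), Ero1l differed by -1.75 and Aldoa by -0.63. With library 5, 6, 7 or 8 removed, 0, 1, 10 and 9 genes of the unfolded protein response and 3, 3, 12 and 17 glycolysis genes were called lower, and 0, 0, 1 and 2 and 0, 0, 7 and 4 higher. With no filter beyond 1 count, 6 genes of the unfolded protein response were called lower. With upper-quartile scaling, 7 glycolysis genes were.

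Several genes of sterol synthesis were higher in KO of experiment 1. These genes are under SREBP2, which is active when cell cholesterol is low, while LXR genes answer to sterol load. Of 26 tested, 12 were higher and none lower, with a median of 0.61. Insig1, which retains SREBP in the endoplasmic reticulum and is itself its target, had 159.8 and 166.8 CPM in libraries 5 and 6 against 103.0 and 88.6 CPM in libraries 7 and 8 (log2 difference 0.76, standard error 0.10, edgeR adjusted p = 0.0103). Hmgcs1, an early enzyme of the pathway, had 207.8 and 215.3 CPM against 151.0 and 112.2 CPM (log2 difference 0.68, standard error 0.15, edgeR adjusted p = 0.0295), Nsdhl differed by 0.82 and Fdps by 1.18. Of 20 tested LXR and lipid genes, 2 were higher and 6 lower. Nr1h3, which encodes LXRa, had 11.97 and 9.75 CPM against 28.3 and 24.02 CPM (log2 difference -1.27, standard error 0.15, edgeR adjusted p = 0.00796), Smpdl3a differed by -1.38 and the lipoprotein lipase Lpl by -0.72, whereas Scd1, a desaturase, had 144.5 and 134.1 CPM against 29.6 and 10.9 CPM (log2 difference 2.78, standard error 0.47, edgeR adjusted p = 0.018). In fits that left out library 5, 6, 7 or 8, 0, 1, 23 and 14 sterol genes were called higher, and 0, 1, 9 and 3 LXR and lipid genes higher and 1, 0, 7 and 7 lower.

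Many ribosomal protein genes were lower in KO of experiment 1, by small amounts. Of 85 tested, 48 were lower and 1 higher, with a median of -0.41. Rps6 had 214.3 and 212.6 CPM in libraries 5 and 6 against 314.8 and 314.6 CPM in libraries 7 and 8 (log2 difference -0.56, standard error 0.08, edgeR adjusted p = 0.0127) and Rpl30 differed by -0.69. Ribosomal protein genes share reads with their pseudogenes, which were left out of the list. With upper-quartile scaling, 37 were lower. Without library 5, 6, 7 or 8, 0, 0, 69 and 63 were, and 0, 0, 2 and 1 were higher. Of 34 tested nuclear respiratory chain genes, 6 were lower, near the background share, and none higher. With no filter beyond 1 count 12 were lower, and in the fit of all 8 libraries 13. Cycs, cytochrome c, had 10.8 and 13.5 CPM against 27.00 and 29.3 CPM (log2 difference -1.21, standard error 0.14, edgeR adjusted p = 0.00773), and Cox5a differed by -0.61. Of 14 tested genes of the mitochondrial genome, 5 were higher and none lower. Among them mt-Cytb had 713.3 and 645.9 CPM against 273.3 and 264.6 CPM (log2 difference 1.33, standard error 0.10, edgeR adjusted p = 0.00383) and mt-Nd4 had 98.9 and 83.98 CPM against 51.9 and 53.5 CPM (log2 difference 0.79, standard error 0.11, edgeR adjusted p = 0.0109), while mt-Co1 had 5965 and 5518 CPM against 4517 and 4760 CPM and was not called. In the same fits, 0, 1, 18 and 7 nuclear genes were called lower and 1, 3, 6 and 7 mitochondrial ones higher.

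**Figure D4:**
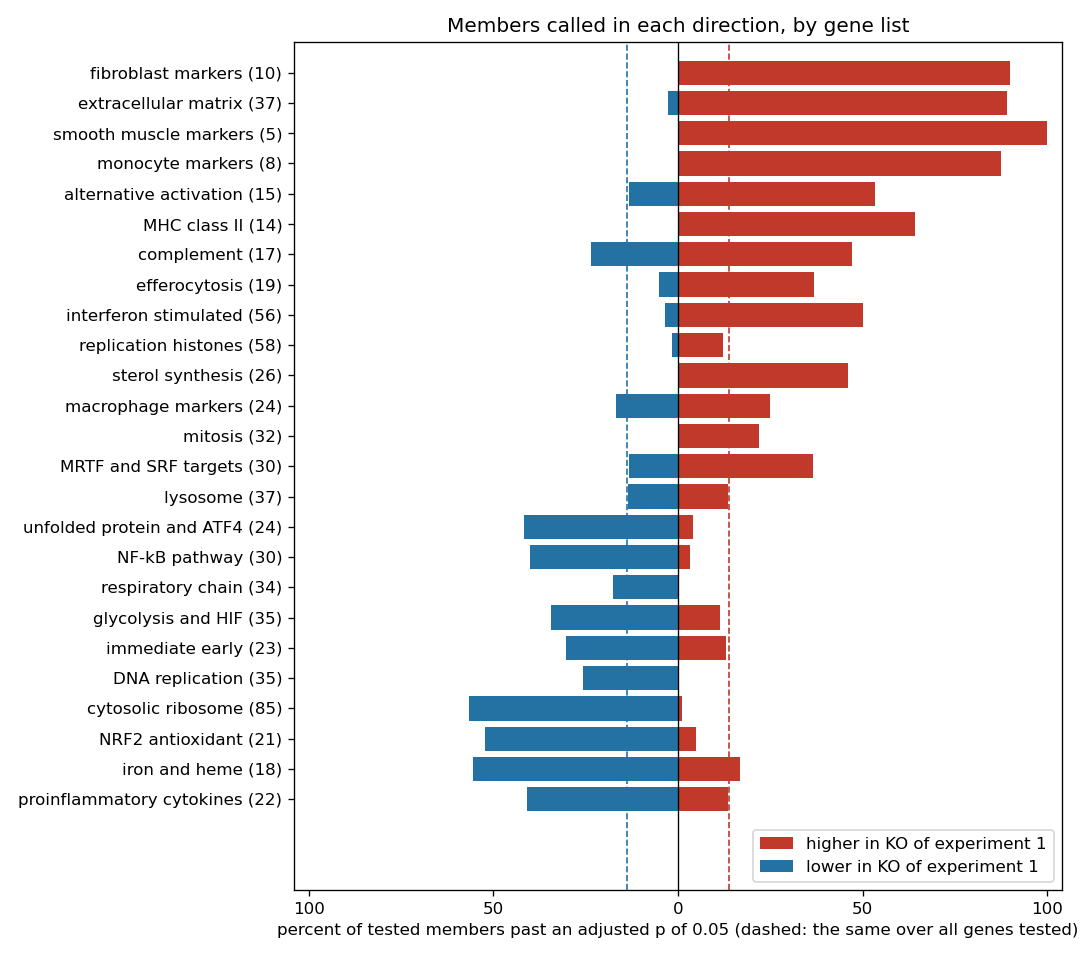
Percent of the tested members of each gene list (number in brackets) called higher (red, to the right) or lower (blue, to the left) in KO of experiment 1, with dashed lines at the share over all genes tested (13.7% higher and 13.8% lower). Matrix, fibroblast and smooth muscle lists reach far beyond the line on the right, and ribosome, iron and NRF2 lists on the left.

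The remaining lists had few calls or calls in both directions. Immediate early genes had 3 higher and 7 lower of 23 tested, and genes of interferon sensing 6 higher and 2 lower of 29. MHC class I genes had 1 higher and 1 lower of 17, and lysosome genes 5 higher and 5 lower of 37. Among chemokine receptors 2 were higher and 2 lower of 12, and among genes of the p53 response 5 and 5 of 21. The TGFb pathway had 8 higher and 3 lower of 24, integrins and other adhesion genes 6 and 4 of 20, metalloproteases and other proteases 4 and 3 of 18, and growth factor receptors 5 and 4 of 20. Fc receptors had 2 and 1 of 8, and genes of fatty acid oxidation 3 and 1 of 20. Genes of the angiotensin and vasoactive systems had 3 higher and 1 lower of 7 tested. Among markers of other blood cells, 2 of 4 tested B cell markers, 1 of 3 megakaryocyte markers, 2 of 8 progenitor markers and 1 of 2 mast cell and basophil markers were higher and none lower. Of 4 tested T and NK cell markers none was called, and no erythroid marker passed the count filter. Mcpt8, a basophil protease, had 43 and 51 counts in libraries 5 and 6 and 0 in both libraries of experiment 2, at least 16.61-fold higher against a floor of 3 counts per library. Over these lists, 59 members were called higher and 39 lower, a gene on more than 1 list being counted on each. Because of this, no share was formed from these sums. The background over all genes tested was 13.7% higher and 13.8% lower. Fewer members were called without library 5 or library 6, and more without library 7 or library 8.

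The KO difference between the experiments was, with the experiment labels as given, not the difference that the WT cultures of the same experiments showed. The log2 difference of experiment 1 minus experiment 2 differed between KO and WT for 6217 of 15618 genes (39.8%) in the edgeR interaction test over all 8 libraries. Among these were 3162 of the 4162 genes called in KO. The interaction contains the KO difference of the same libraries, so this overlap is in part built in and is no separate support. Of the 4162, 2898 (69.6%) had the opposite sign in WT and 1252 (30.1%) the same sign, the rest having a WT difference of exactly 0, and both shares would trade places if the experiment labels of the KO pairs were exchanged. The interaction count rests on those labels too, which were not tested, and it was not computed with them exchanged. The median of sterol genes was 0.61 in KO and -0.94 in WT, that of mitosis genes 0.30 and -0.96, that of histone genes 0.64 and -2.36, and that of ribosomal protein genes -0.41 and 0.41. Matrix genes had 4.40 in KO and -0.45 in WT. For proinflammatory genes both medians were negative, -0.77 in KO and -1.52 in WT. Leaving out 1 of the 8 libraries gave between 4182 and 6672 genes in the interaction test.

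**Figure D5:**
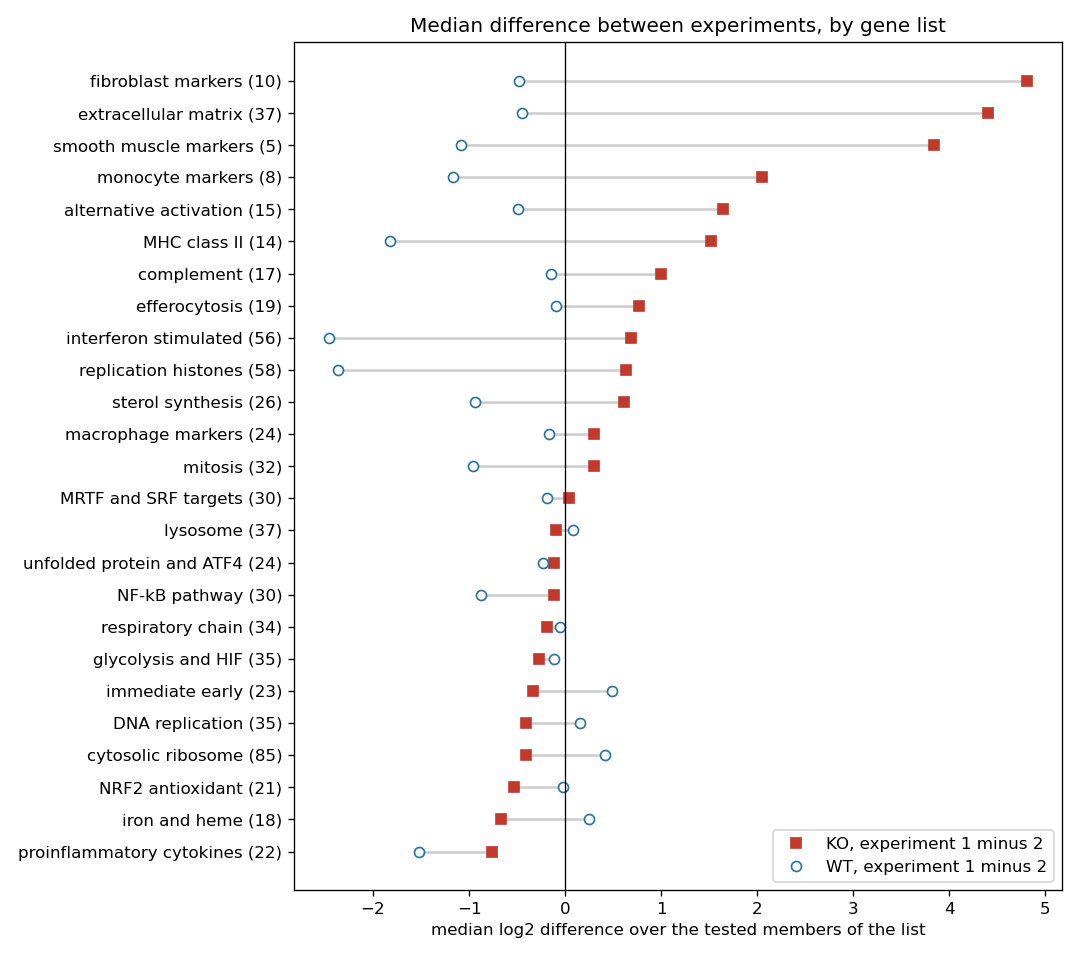
Median log2 difference of experiment 1 minus experiment 2 over the tested members of each list (number in brackets), in KO (red squares) and in WT (blue open circles). The lists of MHC class II, interferon stimulated, sterol, mitosis and histone genes have positive medians in KO and negative ones in WT, and ribosomal protein genes the reverse.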

How the data were processed

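Bulk RNA-seq of 8 BMDM libraries was analysed, from libraries made with a stranded mRNA kit. The authors deposited whole-number read counts per gene, listed by symbol, in 1 table per experiment, and the same counts divided by DESeq2 size factors set within each experiment (a signal). The normalized signal deposited by the authors was used only to check the unit. The submitters' processing notes name STAR 2.7.0f, Subread 1.6.4 with featureCounts, DESeq2 1.22.1 and GRCm38, and the annotation is not given in the sources used here. Counting of reads shared by copies of a gene, or by overlapping genes, was not stated.

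Counts of both experiments were joined by gene. Genes were kept by filterByExpr, scaled by TMM and compared with edgeR 4.0.16 in R 4.3.3 (robust quasi-likelihood fit and F test, Benjamini-Hochberg adjustment, threshold 0.05) in the 4 KO libraries, and by the interaction of genotype and experiment in all 8. Standard errors were taken as the absolute log2 difference over the square root of F. Groups with at most 3 counts per library are given as counts, with an exact 95% interval of the ratio, or a bound where all were 0. On simulated data, the KO fit recovered 75 of 100 genes changed by 2-fold and 96 of 100 changed by 4-fold. Beside these it made 24 false calls, in a fit of 15123 genes. The interaction fit recovered 44 and 93 of 100, with 13 false calls among 15618. In the simulation only those genes were changed, all above a minimum level, and each gene had the same spread in every group. The data here had 4162 called genes and library pairs of unequal spread, so these rates do not carry over to the calls above.

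Members, the 53 gene lists and the tests were chosen with earlier results of these data known. Genes named were Mkl1, Mkl2 and Srf, the 10 largest called differences in each direction with an aveLogCPM of edgeR no lower than 4 and no overlap between the experiments, up to 6 members of each list by p and 3 by level, markers of other cells at or near 0, and members of counts of 5 or fewer. Tagln2, Tes, Itgam, C3 and Mcpt8 were named after their values were seen. Lists are described by counts and medians, with no set test. Alternatives were DESeq2 1.42.0, limma-voom (limma 3.58.1), upper-quartile scaling, other count filters, stricter thresholds, a fit of all 8 libraries and each library left out. Promoter windows come from a RefSeq table on GRCm38.p6, matched by symbol. Figures were drawn with matplotlib 3.10.9. With 2 libraries per group, the spread rests on 2 residual degrees of freedom in the KO fit, shared across genes by edgeR. A few members of lists that the naming rule covers are not reported here by name.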

Additional observations from a re-analysis of the deposited data

Results flagged for a closer look

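The difference between the experiments was not the same in KO and WT for 6217 of 15618 genes (39.8%), by edgeR's interaction test over all 8 libraries with Benjamini-Hochberg adjustment. It rests on the experiment labels of the KO libraries, which were used as given and not tested, and no count was made with the labels exchanged, although KO of experiment 2 stood closer to WT of experiment 1 than to WT of its own experiment. By list, this held for 30 of 37 tested extracellular matrix genes, 9 of 10 fibroblast markers, 5 of 8 monocyte markers, 12 of 14 MHC class II genes, 54 of 56 interferon stimulated genes, 53 of 58 histone genes, 29 of 32 mitosis genes, 22 of 26 sterol synthesis genes, 24 of 30 NF-kB pathway genes and 72 of 85 ribosomal protein genes. It also held for 12 of 22 proinflammatory cytokines and mediators, 11 of 18 iron and heme genes, 12 of 21 NRF2 genes, 13 of 24 genes of the unfolded protein response, 16 of 35 glycolysis and HIF genes and 14 of 24 macrophage markers, and nothing particular to a list is read from any of these counts. Groups of 2 libraries are too small for a test of single outlying libraries.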

How the results depend on the processing

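The count of genes called between the KO cultures was 4162, and it was 683 at an adjusted p under 0.01, 1793 with a change of at least 2-fold, and between 383 and 7057 when 1 KO library was left out. DESeq2 gave 4346, upper-quartile scaling 4091, limma-voom 4086, no filter beyond 1 count 4889, at least 10 counts in every library 3380 and the fit of all 8 libraries 5240. The interaction count of 6217 was 3372 at an adjusted p under 0.01, 3512 with a change of at least 2-fold, between 4182 and 6672 without 1 library, and between 5608 and 6725 in the other alternatives. When library 5 or 6 was left out, the KO count fell and its spread came from libraries 7 and 8 alone (SD 0.545). When library 7 or 8 was left out, the KO count rose and its spread came from libraries 5 and 6 alone (SD 0.387). The part of this spread in the fall and the rise was not tested.

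Of the 150 called genes that the text gives values for and that were tested again, none changed direction in any alternative that tested it. Leaving aside the fits without a library and the raised thresholds, 119 stayed called in every alternative that tested them. With at least 10 counts in every library, 128 stayed called, 1 lost its call and the others were not tested. Of the 12 that were not called, 6 were called without library 7 (Mkl2, Spp1, Ctss, Ifi30, Mrc1 and Mki67) and 7 without library 8 (Spp1, Actb, Ifi30, Lyz2, Mrc1, Pcna and mt-Co1). DESeq2 called 3 of them (Ifi30, Pcna and mt-Co1), the fit of all 8 libraries 3 (Spp1, Ifi30 and Mrc1) and the fit with no filter beyond 1 count 2 (Ifi30 and Pcna). Lyz2 turned from lower to higher in experiment 1 without library 7 (0.20 on the log2 scale, edgeR adjusted p = 0.202), and was called lower without library 8 (-0.45, edgeR adjusted p = 0.0282). Zbtb46, also not called, was at -0.75 on the log2 scale without library 7 and turned to 0.073 without library 8. At an adjusted p under 0.01, members called higher were 10 matrix genes, 3 fibroblast markers, 5 MHC class II genes, 1 interferon stimulated gene, 0 mitosis genes, 0 histone genes and 1 sterol gene, and those called lower 0 ribosomal protein genes, 6 NF-kB genes, 5 proinflammatory genes, 6 iron and heme genes, 7 NRF2 genes, 4 genes of the unfolded protein response, 3 glycolysis genes and 0 replication genes. With a change of at least 2-fold, these counts were 32, 9, 8, 12, 2, 3 and 3 higher and 0, 6, 7, 7, 6, 7, 4 and 1 lower, in the same order as above. These thresholds lowered the counts of most other lists too. In the alternatives that kept the threshold and every library, and besides those given with the results, the count of called members moved by over 1.5 times, and by more than 1 gene, for the lists that follow. With at least 10 counts in every library, which leaves fewer members, the higher calls were 2 of marrow stroma markers, 2 of smooth muscle markers, 4 of MRTF and SRF targets, 1 of chemokines, 5 of alternative activation genes, 5 of TGFb genes, 2 of proteases and 1 of angiotensin genes, and the lower calls 1 of neutrophil markers, 3 of lysosome genes and 3 of p53 genes. DESeq2 gave 8 scavenger receptors, 5 LXR and lipid genes, 8 lysosome genes and 3 MHC class I genes higher and 4 chemokine receptors lower. Upper-quartile scaling gave 15 histone genes higher and 3 lysosome, 3 p53 and 2 growth factor receptor genes lower, and limma-voom 11 histone genes higher. With no filter beyond 1 count, 15 histone genes, 1 glycolysis gene, 1 iron gene and 1 protease were called higher and 3 chemokines lower. Medians within about 0.2 of 0 changed sign in some alternatives for the lists of MRTF and SRF targets, chemokines, chemokine receptors, MHC class I, lysosome, p53, protease and adhesion genes, as did those of 2 marker lists with 4 tested genes each (neutrophils, T and NK cells). No paired analysis was possible because every library had a number of its own. With 35607808 to 41331939 counts per KO library, depth limits chiefly genes with few counts, and counting intervals do not cover the spread between cultures.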
